A study of Mus musculus with 5 samples.

Results

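Principal cells are the water- and salt-handling epithelial cells of the kidney collecting duct. In mouse kidney under ureteral obstruction and after its reversal, 257 cells passed a gate for them, chosen by UMI (unique molecular identifier) counts of marker genes rather than by clustering. The gate also admitted cells rich in connecting tubule genes (33, 11, 18 and 26 in the 4 libraries), so principal cells here means the gated cells. A cell was a member when Aqp2, Fxyd4 and Hsd11b2 together had at least 5 UMIs, with at least 2 of them from Aqp2 and Hsd11b2. It also had to have at most 1 UMI of Atp6v1g3, at most 2 each of Slc12a1 and Slc12a3, no Ptprc UMI and at most 1 Egfl7 UMI, which removes intercalated cells, thick ascending limb, distal convoluted tubule, leukocytes and endothelium. The 257 members came from 13823 cells that passed the quality limits (200 genes or more, mitochondrial UMIs of 50% or less), themselves part of 16876 deposited cells. The members were 58 of 3933 kept cells after sham surgery (day 0), 60 of 2207 at day 2 of unilateral ureteral obstruction (UUO), 84 of 4447 at day 7 of UUO, and 55 of 3236 at 7 days after reversal of UUO, which is experimental day 14. All mice were C57/BL6 and 8 weeks old, no transgene or drug is named, and each library pooled cells of 3 mice. Each of the 4 conditions therefore has 1 droplet library, made from kidneys digested on ice and sorted for live cells with DAPI. A Smart-seq2 sample that mixes all time points was not analysed here.

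In the healthy collecting duct, vasopressin acts through the receptor Avpr2 and cyclic AMP to raise Aqp2 transcription and to move the aquaporin-2 channel into the apical membrane, and water leaves the cell through aquaporin-3 and aquaporin-4 on the basolateral side. Sodium enters through the epithelial sodium channel (Scnn1a, Scnn1b, Scnn1g) under aldosterone, while Hsd11b2 inactivates glucocorticoids that would otherwise occupy the mineralocorticoid receptor. Obstruction of the ureter raises pressure in the ducts, is known for loss of collecting duct aquaporins and concentrating ability, and is followed by tubule injury, inflammation and fibrosis.

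With 1 library per condition there is no replicate error, so no p-value is given. A level is CPM, the usual rescaling of counts to a common total, here of nuclear-encoded UMIs, summed over the members of a library, its range in brackets is an exact Poisson 95% interval, and the interval of a fold is an exact conditional binomial one. These intervals cover counting error only and say nothing of the spread between mice. The members held 215406 nuclear-encoded UMIs in sham, 490263 at day 2, 506827 at day 7 and 335040 after reversal. The median per cell was 5537, 9238, 6250 and 6782 UMIs in the same order. The median mitochondrial share was 28.2%, 15.2%, 10.8% and 18.7%, so the sham cells were shallower and richer in mitochondrial UMIs. The cell barcodes shared between any 2 libraries numbered 16 to 39, over all deposited cells. A summed level cannot tell more positive cells from more RNA per cell, so shares of cells are given for the main genes.

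The members made up 1.47% of kept cells in sham (exact binomial 95% interval, 1.12 to 1.90), 2.72% at day 2 (2.08 to 3.49), 1.89% at day 7 (1.51 to 2.33) and 1.70% after reversal (1.28 to 2.21). The order depended on the quality limit: among cells with at most 20% mitochondrial UMIs the shares were 2.47%, 2.51%, 1.70% and 1.45%, so that sham was no longer the lowest. These shares depend on how many other cells survived digestion and sorting: the leukocyte gate alone took 78, 687, 2953 and 977 kept cells. The gate genes themselves describe the members and are not a result. Aqp2 was at 8913, 6601, 1320 and 4695 CPM in sham, day 2, day 7 and reversed members, Hsd11b2 at 5631, 2623, 1934 and 3203 CPM, and Fxyd4, a regulator of the sodium pump, at 3078, 2482, 1436 and 2056 CPM. The median of the summed gate UMIs was 44 per cell in sham, 78.5 at day 2, 20 at day 7 and 32 after reversal, well inside the threshold of 5. Cells exactly at 5 numbered 1, 1, 4 and 1, and cells at 4 that met the other conditions numbered 1, 2, 5 and 4.

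The label was checked against 14 principal cell genes that the gate does not use. All of them were detected in sham members, where they summed to 10060 CPM against 2309 CPM in the intercalated, 1429 in the thick ascending limb, 2416 in the distal convoluted tubule and 113 in the leukocyte gate of the same library. The 5 connecting tubule genes summed to 34614 CPM in sham members, more than the principal cell genes, and to 2081, 5351 and 24349 CPM in the later libraries. In the distal convoluted tubule gate they summed to 25870, 465, 3381 and 5861 CPM, so they do not single out the connecting tubule. The 2 distal convoluted tubule markers outside the gate summed to 9.3 CPM in sham members and 1335 CPM in that gate. Markers of urothelium summed to at most 3.9 CPM and those of intercalated cells to between 13.9 and 69.4 CPM in any library of members, and Upk1b, Upk3a, Krt5 and Nphs1 were at 0 throughout. The gate thus also admitted cells rich in connecting tubule genes, and the segment they came from was not tested. The connecting tubule is the segment upstream of the collecting duct. Its cells share Aqp2 and Hsd11b2 with principal cells and in addition carry calcium-handling genes. Members with more than 0.5% of their nuclear-encoded UMIs from Calb1, S100g, Slc8a1, Trpv5 and Klk1 numbered 33 of 58 in sham (56.9%, 43.2 to 69.8), 11 of 60 at day 2 (18.3%, 9.5 to 30.4), 18 of 84 at day 7 (21.4%, 13.2 to 31.7) and 26 of 55 after reversal (47.3%, 33.7 to 61.2). Such cells were the larger part of the sham members and the smaller part at both times of obstruction. The main counts below are therefore also given for the 25, 49, 66 and 29 remaining cells, called gene-low members.

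**Figure D1:**
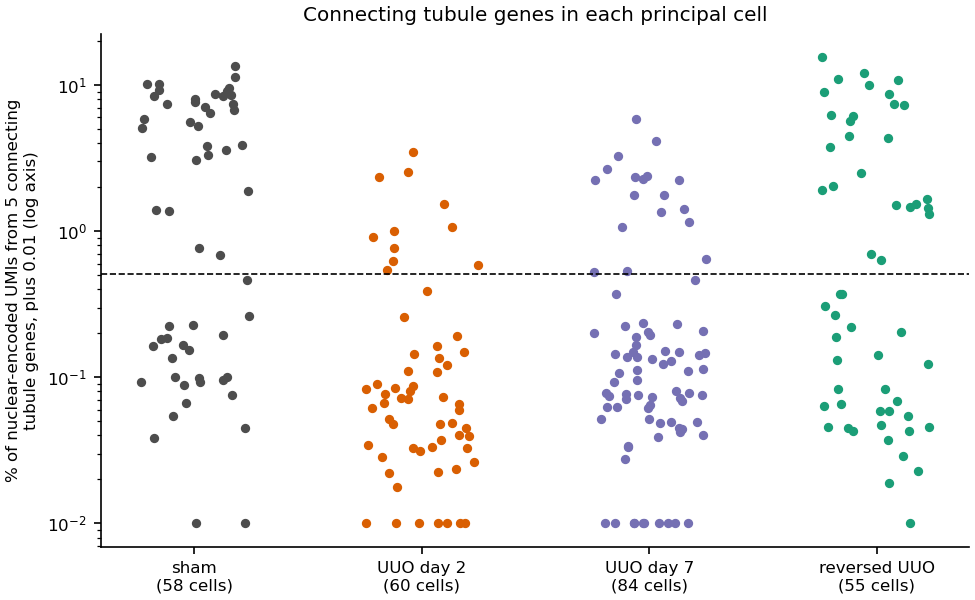
Each point is 1 principal cell, placed on a log axis by the percent of its nuclear-encoded UMIs from 5 connecting tubule genes plus 0.01, with the dashed line at the limit of 0.5%. Sham and reversed members fall into a high and a low cloud, with 33 and 26 cells above the line, while 11 day 2 and 18 day 7 members lie above it.

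The range is wide within a library. The highest cell gave 13.5% of its UMIs to these genes in sham, 3.45% at day 2, 5.89% at day 7 and 15.5% after reversal, against medians of 1.63%, 0.059%, 0.101% and 0.362%. Between 0.25% and 1% lay 4, 7, 5 and 6 cells. S100g, a vitamin D-dependent calcium-binding protein, was at 28319 CPM in sham, 1254 at day 2, 4120 at day 7 and 16846 after reversal. The log2 ratio of 2.03 between reversal and day 7 turned to -0.094 among cells with at most 20% mitochondrial UMIs. Among the connecting tubule gene-rich members alone it was at 54194, 9095, 17254 and 40351 CPM, a description only, since S100g is among the genes that chose those cells; the same holds for the ratios of -0.52 for S100g and -0.34 for Calb1 between reversal and day 7 in gene-low members. Calb1, the cytosolic calcium buffer of this segment, stood at 3217, 469, 345 and 3256 CPM, and Klk1, the kallikrein secreted by it, at 2934, 249, 547 and 3973 CPM. For both, the reversed library was level with or above sham. With at most 20% mitochondrial UMIs the Klk1 ratios also turned, to 0.22 at day 2 against sham and -0.12 at reversal against day 7. Aqp4, the basolateral water channel, was seen in 40.0% of gene-low members in sham, 55.1% at day 2, 10.6% at day 7 and 20.7% after reversal, without thinning. Of the gene-rich members 0 of 33, 0 of 11, 0 of 18 and 3 of 26 (11.5%) had a UMI of it, and the counts of 0 allow shares of cells with a UMI of up to 9.09%, 27.3% and 16.7%. At day 7 that limit lies above the gene-low share, and the cells were not brought to 1 depth, so no difference between the 2 kinds of cell is read from these shares.

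The promoter of Aqp2 is shown because its product defines these cells and is the classical target of vasopressin signalling, and that of Lcn2 because it encodes a widely used marker of tubule injury, described below. Aqp2 lies at chr15:99579055-99584547 on the plus strand and Lcn2 at chr2:32384633-32388252 on the minus strand (GRCm38, GENCODE M21). The stretches below lie within 250 bases upstream of the RefSeq start (GRCm38.p6 table), at chr15:99578806-99579054 and chr2:32387798-32387989, without bases that GENCODE counts as UTR. The Lcn2 stretch overlaps a coding exon of another annotated Lcn2 transcript.
Aqp2: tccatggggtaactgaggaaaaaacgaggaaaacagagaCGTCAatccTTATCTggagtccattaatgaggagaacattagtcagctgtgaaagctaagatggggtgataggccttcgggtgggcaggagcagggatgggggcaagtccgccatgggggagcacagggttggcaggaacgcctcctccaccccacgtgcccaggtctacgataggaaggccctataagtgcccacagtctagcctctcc
Lcn2: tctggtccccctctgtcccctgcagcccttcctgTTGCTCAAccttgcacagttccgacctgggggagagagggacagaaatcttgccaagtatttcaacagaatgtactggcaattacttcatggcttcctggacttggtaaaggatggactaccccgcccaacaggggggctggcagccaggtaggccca
Capitals mark matches, searched on both strands. In Aqp2 they are TGACG, the half-site of the cAMP response element, read on the opposite strand 211 to 207 bases before the start, and the GATA motif AGATAA, also on the opposite strand, 202 to 197 bases before it. TGACG was found in 17.8% and AGATAA in 9.99% of 32851 windows of 250 bases. In Lcn2 they are TTNNGCAA, a C/EBP motif, on the opposite strand 216 to 209 bases before the start, found in 9.56% of the windows. No capital letters of different motifs overlap. A match is a description of the letters and shows no binding.

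Of 7 vasopressin and water genes that entered, 3 were at least 2-fold lower at day 2 than in sham (Aqp3, Adcy6 and Ptger1) and 1 at least 2-fold higher (Aqp4), with a median log2 ratio of -0.51; a gene entered with at least 30 UMIs over both libraries and at least 50 CPM in the higher one. The background at day 2 was 10.7% of 3699 genes at least 2-fold higher and 9.49% at least 2-fold lower, that is 396 and 351 genes. That balance depended on the scaling, with 553 higher and 214 lower under TMM, 503 and 256 with DESeq2 size factors and 532 and 202 with all UMIs as the total. In gene-low members 2 of 6 water genes were lower (Aqp3 and Ptger1) and 0 higher, with a median of -0.24, and among cells with at most 20% mitochondrial UMIs the median was -1.02. Adcy6 lay under 50 CPM at day 2 and entered only through sham, and it turned to 0.19 when cells were thinned to 1000 UMIs. Aqp3, the basolateral channel for water and glycerol, was at 2391 CPM in sham (2189 to 2607), 969 at day 2 (884 to 1060), 353 at day 7 (303 to 409) and 860 after reversal (763 to 965). The order was sham, then day 2 and reversed with overlapping intervals, then day 7. The folds were 2.47 lower at day 2 than in sham (2.17 to 2.80), a further 2.74 lower at day 7 (2.31 to 3.28), 2.43 higher after reversal than at day 7 (2.01 to 2.95) and still 2.78 lower after reversal than in sham (2.40 to 3.22). In gene-low members alone the levels were 3806, 994, 365 and 1044 CPM, which keeps that order with a wider gap below sham. Avpr2, the vasopressin receptor, was at 302 CPM in sham (233 to 385), 212 at day 2 (173 to 257), 63.1 at day 7 (43.2 to 89.1) and 158 after reversal (118 to 207). It was 3.36-fold lower at day 7 than at day 2 (2.24 to 5.16) and 2.51-fold higher after reversal than at day 7 (1.59 to 4.02).

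Aqp4 took another course. Its level was 135 CPM in sham (90.2 to 193), 300 at day 2 (253 to 352), 19.7 at day 7 (9.46 to 36.3) and 158 after reversal (118 to 207). Day 2 was the highest library and day 7 the lowest, with sham and reversed overlapping between them. The level was 15.2-fold lower at day 7 than at day 2 (8.03 to 32.4) and 8.02-fold higher after reversal than at day 7 (4.04 to 17.7). The 2.23-fold higher level at day 2 than in sham (1.49 to 3.44) depended on which cells were counted, since gene-low members had 280, 344, 25.4 and 214 CPM. Elf5, an Ets-family transcription factor of principal cells, had the same shape at lower counts, with 18.6 CPM in sham, 102 at day 2, 7.89 at day 7 and 23.9 after reversal. It was 5.49-fold higher at day 2 than in sham (2.02 to 20.9) and 12.9-fold lower at day 7 than at day 2 (4.74 to 49.3). In gene-low members Elf5 was at 38.6, 115, 7.61 and 40.7 CPM, the sham level from 4 UMIs, so the gap between sham and day 2 was smaller there.

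**Figure D2:**
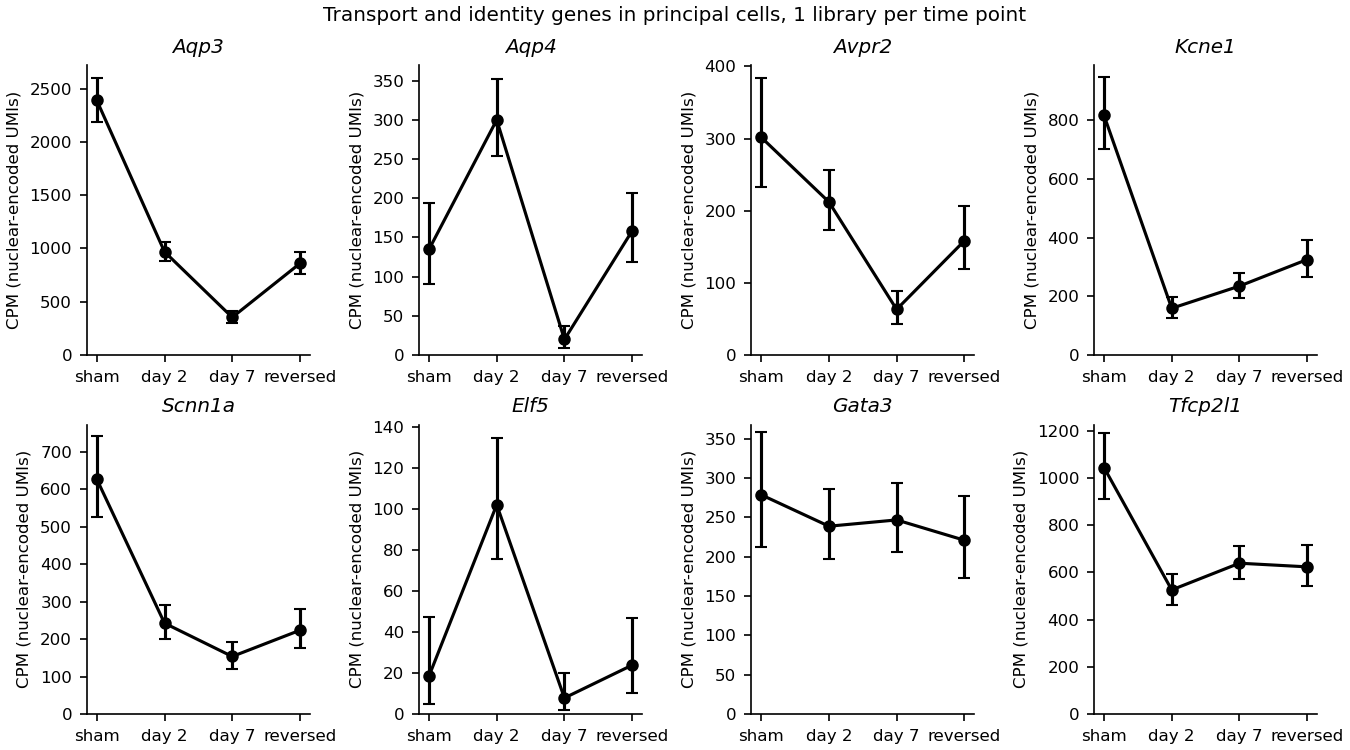
Points are the summed level of 8 genes in principal cells by library, in CPM of nuclear-encoded UMIs from 0, with bars for exact Poisson 95% intervals and 1 library per time point. Aqp3 and Avpr2 are lowest at day 7, Aqp4 and Elf5 peak at day 2, and the 4 intervals of Gata3 overlap.

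Among 14 principal cell genes outside the gate, 2 were at least 2-fold higher and 3 at least 2-fold lower at day 2 than in sham, with a median log2 ratio of -0.72 against -0.07 over all genes that entered. The 2 that were higher were Aqp4 and Elf5, and the 3 that were lower were Aqp3, Scnn1a and Kcne1. The background was 10.7% of genes at least 2-fold higher and 9.49% at least 2-fold lower. Elf5 lay under 50 CPM in sham and entered only through day 2, so the filter set its direction. Among gene-low members the same list had 1 higher and 5 lower of 14, with a median of -0.70, where 338 and 252 of all 2907 genes entered were past 2-fold. Gata3, a transcription factor of the duct lineage, differed little, at 279 CPM in sham (213 to 359), 239 at day 2 (197 to 286), 247 at day 7 (205 to 294) and 221 after reversal (173 to 277). Tfcp2l1, which is needed for the balance of principal and intercalated cells, was at 1045, 526, 639 and 624 CPM, 1.98-fold lower at day 2 than in sham (1.65 to 2.38) and with little difference among the later libraries. Of 10 duct transcription factors 2 were at least 2-fold higher at day 2 than in sham (Elf3 and Elf5) and 1 lower (Emx1). The background for these counts was 10.7% and 9.49%. Elf5 entered only through day 2 and Emx1 only through sham, so the filter set their directions. In gene-low members the log2 ratio of Emx1 was 4.12, on too few UMIs to meet the filter, so no direction is read from it. Apela, a peptide ligand of the apelin receptor, was at 1068, 877, 365 and 561 CPM and so followed Aqp3 in being lowest at day 7.

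Of 14 sodium, potassium and aldosterone genes that entered, 7 were at least 2-fold lower at day 2 than in sham and none higher. The 7 were Scnn1a, Fxyd2, Nr3c2, Sgk1, Kcnj10, Kcnj16 and Kcne1. The background was 10.7% of genes at least 2-fold higher and 9.49% at least 2-fold lower. Nr3c2 lay under 50 CPM at day 2 and entered only through sham, so it could only be lower. All 14 had log2 ratios below 0, with a median of -1.06. This median was between -1.11 and -0.67 under the alternatives tried. In gene-low members 5 of 12 were at least 2-fold lower, against a background of 8.67%, with a median of -0.96. Of the sodium channel subunits, the alpha subunit Scnn1a was at 627 CPM in sham (525 to 742), 243 at day 2 (201 to 290), 154 at day 7 (122 to 192) and 224 after reversal (176 to 281). The beta subunit Scnn1b was at 669, 390, 294 and 421 CPM and the gamma subunit Scnn1g at 529, 332, 276 and 343 CPM. The alpha subunit was thus 2.58-fold lower at day 2 than in sham (2.00 to 3.33), the beta subunit 1.72-fold (1.37 to 2.14) and the gamma subunit 1.59-fold (1.24 to 2.03). For each of them the later libraries also stood below sham. In gene-low members Scnn1a was at 628, 239, 135 and 86.6 CPM and Scnn1b at 676, 380, 272 and 316. Scnn1g was at 367, 333, 272 and 244 CPM there, so it differed little between sham, with 38 UMIs, and day 2. Sgk1, the aldosterone-induced kinase that keeps the channel at the membrane, was at 339, 95.9, 53.3 and 188 CPM. It was 3.54-fold lower at day 2 than in sham (2.42 to 5.21) and 3.53-fold higher after reversal than at day 7 (2.22 to 5.76).

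The potassium channel genes followed suit to different degrees. Kcne1, a potassium channel beta subunit, was at 817 CPM in sham (701 to 947), 159 at day 2 (126 to 199), 235 at day 7 (195 to 281) and 325 after reversal (267 to 392). It was 5.14-fold lower at day 2 than in sham (3.91 to 6.79). In gene-low members it was at 705, 117, 221 and 112 CPM, so there the reversed library was as low as day 2, and in connecting tubule gene-rich members at 921, 441, 284 and 627 CPM. Kcnj1, the apical secretory channel ROMK, was at 905, 477, 282 and 504 CPM. Kcnj10, a basolateral channel, was at 381, 112, 71.0 and 182 CPM. Kcnj1 and Kcnj10 were lowest at day 7. Atp1b1, the beta subunit of the sodium pump, differed less, at 4559, 3125, 3250 and 3364 CPM. Fxyd2, a pump regulator that is also abundant in other tubule segments, was at 1746, 694, 1326 and 961 CPM. With an estimated free-RNA profile subtracted, Fxyd2 was higher at day 2 than in sham, with a log2 ratio of 0.35.

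Of 19 tubule injury genes 11 entered the comparison of day 2 with sham, and these 11 were at least 2-fold higher, with a median log2 ratio of 2.02, where the background was 10.7%. Anxa1, 1 of the 11, had a log2 ratio of 1.22 that turned to -1.18 when cells were thinned to 1000 UMIs, on too few UMIs to meet the filter. A gene that is low in sham can enter only where it is high at day 2, which holds for S100a6 and Tnfrsf12a, while the other 9 were above 50 CPM in sham as well. The 8 that did not enter, among them Havcr1 and Krt20, are not counted on either side. Among gene-low members 7 of 11 were, with a median of 1.52. Lcn2, which encodes the iron-siderophore carrier NGAL, was at 144 CPM in sham (97.8 to 204), 4222 at day 2 (4042 to 4408), 1904 at day 7 (1786 to 2028) and 1397 after reversal (1273 to 1529). All intervals were apart, with day 2 highest and reversal far above sham. The level was 29.3-fold higher at day 2 than in sham (20.6 to 43.3) and 9.71-fold higher after reversal than in sham (6.74 to 14.5). Clu, the secreted chaperone clusterin, was at 655 CPM in sham (551 to 772), 16061 at day 2 (15708 to 16420), 13251 at day 7 (12936 to 13572) and 6978 after reversal (6698 to 7267). It was 24.5-fold higher at day 2 than in sham (20.8 to 29.2), 1.90-fold lower after reversal than at day 7 (1.81 to 1.99) and 10.7-fold higher after reversal than in sham (8.99 to 12.7).

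Lcn2 was at a higher level in the gene-low members of every library. These had 270, 4685, 2312 and 2307 CPM of Lcn2 in the order of the libraries, and the connecting tubule gene-rich members 26.8, 1117, 479 and 108 CPM. In the gene-low members the reversed level was thus within counting error of day 7. Clu did not separate them in that way, with 290, 15341, 13493 and 8326 CPM in gene-low and 992, 20896, 12407 and 5070 CPM in gene-rich members. Spp1, the matrix glycoprotein osteopontin, was at 2660 CPM in sham, 13605 at day 2, 7876 at day 7 and 5695 after reversal. In gene-low members it was at 551, 11889, 7483 and 4109 CPM, and in gene-rich members at 4612, 25129, 9252 and 7940 CPM. Its level in the leukocyte gate was 168, 8425, 4208 and 1785 CPM and in the thick ascending limb gate 3827, 80537, 59141 and 19133 CPM. At 1000 UMIs per cell, 93.3% of day 2 members and 88.9% of day 2 leukocyte-gated cells had an Spp1 UMI, so its share of positive cells is not read here.

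S100a6, S100a14 and Sprr2f had no UMI in sham members, where 3 UMIs would correspond to 13.9 CPM. S100a6, a small calcium-binding protein, was at 1185 CPM at day 2 (1091 to 1285), 258 at day 7 and 352 after reversal, which is at least 85.1-fold and at least 25.3-fold above that floor at day 2 and after reversal. Leukocyte-gated cells, which use the gene themselves, had 1137, 1592, 896 and 725 CPM of S100a6, above the members in every library. Thinned to 1000 UMIs per cell, 21.7% of day 2 members and 66.2% of day 2 leukocyte-gated cells had a UMI of it, and the part of free RNA in the level of the members was not tested beyond the subtraction among the alternatives. S100a14 was at 208 CPM at day 2 (170 to 253), 45.4 at day 7 and 86.6 after reversal. Sprr2f, a small proline-rich protein of the cornified envelope family, was at 390 CPM at day 2 (336 to 449), 412 at day 7 (358 to 472) and 68.6 after reversal (43.5 to 103). Unlike S100a14, it was as high at day 7 as at day 2 and 6.01-fold lower after reversal than at day 7 (3.90 to 9.69). Gdf15, a stress-induced hormone of the TGF-beta superfamily, was high at day 2 and near its sham level otherwise, with 55.7 CPM in sham (28.8 to 97.3), 506 at day 2 (445 to 573), 61.2 at day 7 (41.6 to 86.8) and 80.6 after reversal (53.1 to 117).

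**Figure D3:**
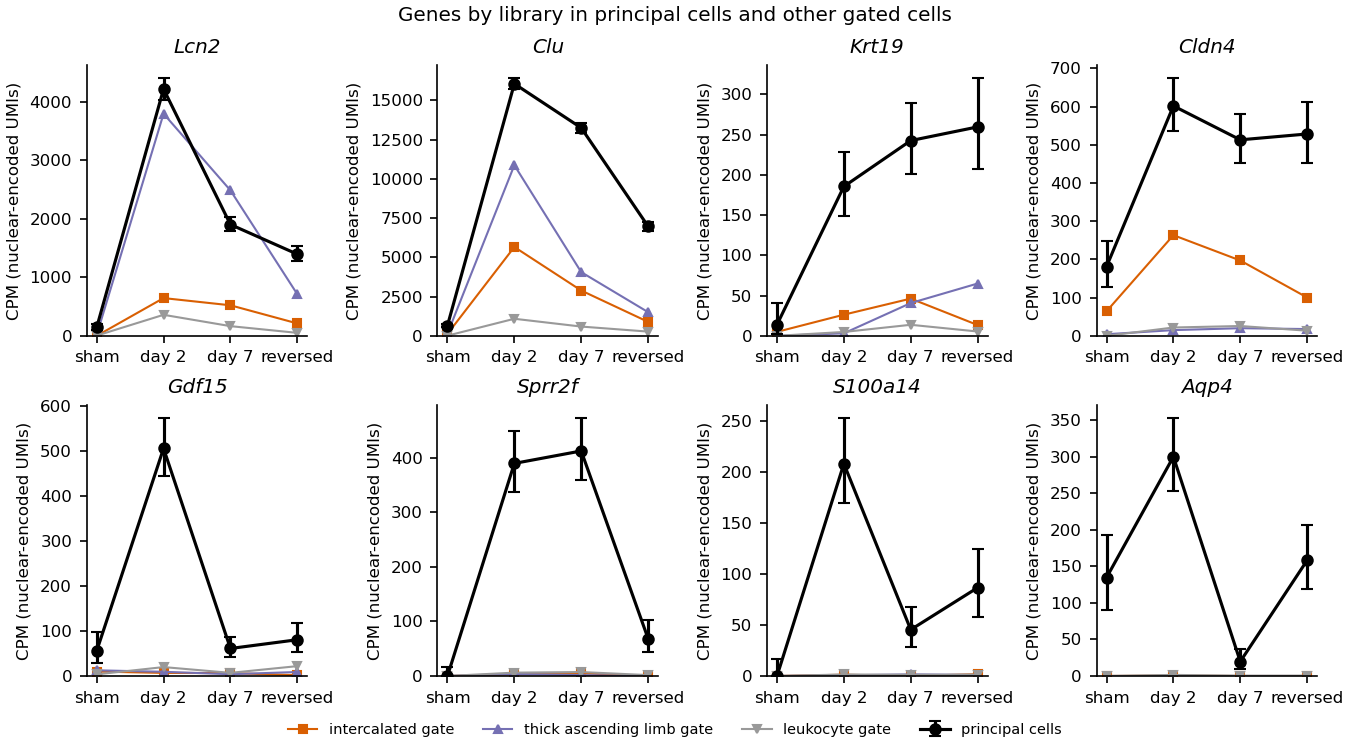
Black points are summed levels of 8 genes in principal cells by library in CPM of nuclear-encoded UMIs from 0, with exact Poisson 95% intervals; coloured symbols are the same genes in intercalated, thick ascending limb and leukocyte gates, without intervals. Lcn2 and Clu are high in the thick ascending limb gate as well, while Gdf15, Sprr2f, S100a14 and Aqp4 lie near 0 in the other gates.

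The same genes were measured in other tubule gates of these libraries. Lcn2 was at 14.7, 3800, 2488 and 712 CPM in the thick ascending limb gate of 181, 223, 132 and 187 cells, and at 0, 646, 522 and 212 CPM in the intercalated gate of 41, 166, 155 and 125 cells. Clu was at 124, 5660, 2887 and 890 CPM in the intercalated gate. That gate carried more leukocyte marker UMIs than the principal cells in the later libraries, with sums of 129, 5152, 8872 and 11889 CPM against 149, 716, 3753 and 1525 CPM, so its levels are not read as those of intercalated cells alone. In the thick ascending limb gate the sums were 151, 943, 4286 and 2070 CPM. Krt19, a keratin of simple ductal epithelia, was at 13.9 CPM in sham principal cells (2.87 to 40.7), 186 at day 2 (149 to 228), 243 at day 7 (202 to 290) and 260 after reversal (208 to 320). In the intercalated gate it was at 4.94, 26.3, 46.3 and 13.4 CPM, of which the sham value lies within the interval of the principal cells. Gdf15 did not exceed 12.6 CPM in the intercalated and thick ascending limb gates. These differences between gates come from the same libraries and were not tested.

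A group of keratins and claudins was higher at day 2 than in sham, within a list in which other genes differed less. Cldn3, Cldn4, Krt8, Krt18 and Krt19 were the 5 of 12 genes at least 2-fold higher at day 2 than in sham. Cldn8 was the only one at least 2-fold lower, and the median log2 ratio was 0.83. The background was 10.7% of genes at least 2-fold higher and 9.49% at least 2-fold lower. Cldn3 and Krt19 lay under 50 CPM in sham and entered only through day 2, so the filter set their direction. Gene-low members gave 5 higher and 2 lower of 12, with the same median. Krt8 and Krt18, the paired keratins of simple epithelia, were at 153 and 204 CPM in sham, 822 and 993 at day 2, 882 and 813 at day 7, and 501 and 552 after reversal. Cldn4, a tight junction protein of the duct, was at 181 CPM in sham (129 to 248), 602 at day 2 (535 to 674), 513 at day 7 (453 to 579) and 528 after reversal (453 to 612). Cldn8, its partner in the paracellular chloride pathway, was at 696, 306, 347 and 379 CPM. The 2 claudins thus stood on opposite sides of their sham levels in all later libraries. Krt19 was 13.3-fold higher at day 2 than in sham (4.42 to 65.8, from 3 sham UMIs) and 18.6-fold higher after reversal than in sham (6.17 to 92.2), the widest of these intervals because of the sham count.

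Shares of positive cells, with each cell thinned to 1000 UMIs, gave the same order as the levels for Lcn2. At least 1 Lcn2 UMI was found in 8.6% of sham members (2.9 to 19.0), 76.7% at day 2 (64.0 to 86.6), 50% at day 7 (38.9 to 61.1) and 30.9% after reversal (19.1 to 44.8). The endothelium gate had 0%, 10.7%, 6.7% and 4.1% at the same depth, with median UMIs per cell of 2456, 4115, 3610 and 3928. The leukocyte gate, which can hold neutrophils that use the gene, had 0%, 11.2%, 6.7% and 3.0%. Unthinned, the shares of members were 17.2%, 91.7%, 79.8% and 58.2%. The order after day 2 depended on the cells counted: in gene-low members the thinned shares were 16.0%, 83.7%, 54.5% and 55.2%, so reversal was level with day 7, and with at most 20% mitochondrial UMIs they were 25%, 86.8%, 49.3% and 43.3%. Clu was found in 36.2%, 96.7%, 100% and 78.2% of thinned members, and in 1.3%, 28.2%, 19.8% and 8.7% of leukocyte-gated cells; in gene-low sham members the share was 16.0%. Most members of the obstructed libraries therefore carried Clu, whereas Lcn2 was missed at this depth in part of them. Aqp3 was found in 67.2% of sham members, 48.3% at day 2, 31.0% at day 7 and 36.4% after reversal, against under 1% of leukocyte-gated cells in each library. For Gdf15 the shares were 3.4%, 21.7%, 7.1% and 3.6%.

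**Figure D4:**
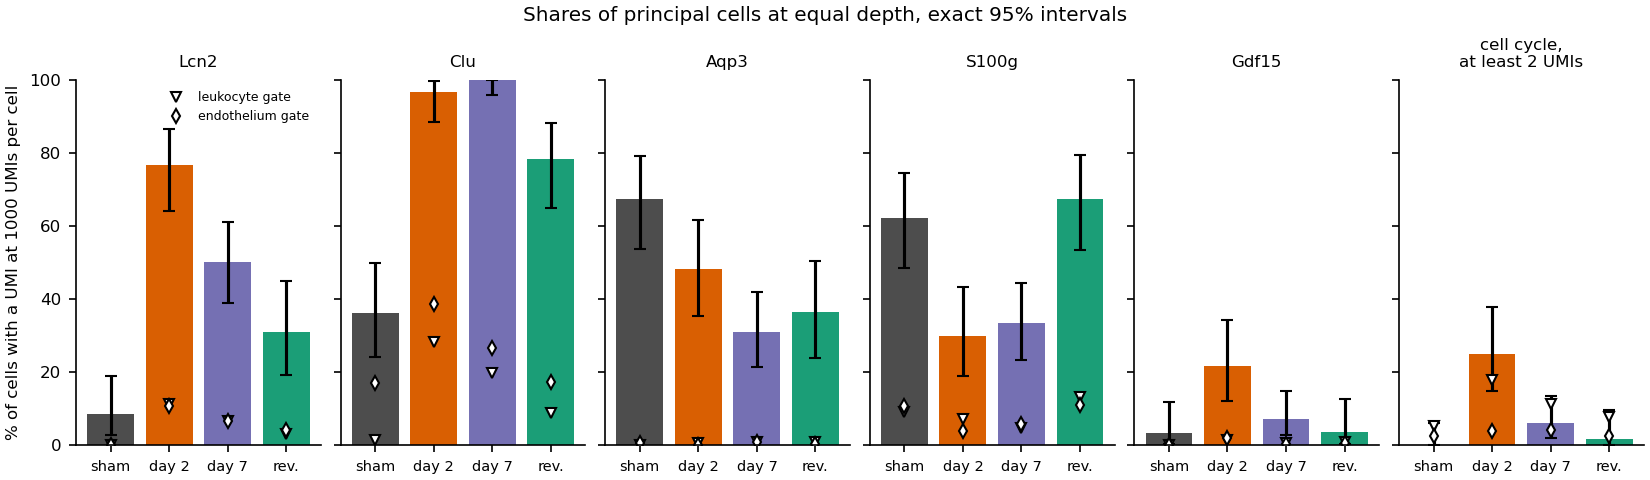
Bars are percents of principal cells with at least 1 UMI of each gene (for the cell cycle, at least 2 UMIs over 17 genes) after thinning every cell to 1000 UMIs, from 0 to 100, with exact binomial 95% intervals; white symbols give the leukocyte and endothelium gates. The Lcn2 bars run 8.6%, 76.7%, 50% and 30.9%, and the cell cycle bar at day 2 is 25%.

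Cell cycle genes were at their highest level in principal cells at day 2. At least 2 UMIs of a list of 17 cell cycle genes after thinning were found in 0 of 58 sham members, 15 of 60 at day 2 (25%, 14.7 to 37.9), 5 of 84 at day 7 (6.0%) and 1 of 55 after reversal (1.8%). Unthinned, the shares were 10.3%, 48.3%, 35.7% and 12.7%, again highest at day 2 but with day 7 closer to it. In the leukocyte gate the shares were 5.1%, 17.9%, 11.1% and 7.6%, and in the endothelium gate 2.6%, 4.0%, 4.1% and 2.6%. The 11 cell cycle genes that entered were at least 2-fold higher at day 2 than in sham, where the background was 10.7%. Genes near 0 in sham must be higher to enter, and 5 of the 11 had no sham UMI. The median log2 ratio was 4.57, or 2.64 with those 5 at their lower bounds. Mki67, a nuclear marker of cycling cells, was at 0, 116, 9.87 and 5.97 CPM, and Stmn1, a microtubule regulator of dividing cells, at 23.2, 573, 107 and 47.8 CPM. The day 2 library is the high one for each of these genes. A single cell held 275 of the 871 cell cycle UMIs at day 2 (31.6%) and the next 62. Without the highest cell of each library 7 of 7 genes that entered were higher, with a median of 3.88. There, 353 of all genes that entered were at least 2-fold higher. At day 7 all 11 cell cycle genes were at least 2-fold lower than at day 2, with a median of -3.43, where the background was 5.64%. Of these, 10 lay under 50 CPM at day 7 and entered only through day 2, so they could only be lower. Without the cells counted as cycling, the median of the 2 genes that still entered was -0.18. Those cells were chosen by their UMIs of the same list, so that value is a description only.

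At day 7 the water channel and receptor transcripts Aqp3, Aqp4 and Avpr2 were at least 2-fold lower than at day 2, and no sodium, potassium or aldosterone gene was past 2-fold. Of 14 principal cell genes, 5 were at least 2-fold lower at day 7 (Aqp3, Aqp4, Avpr2, Elf5 and Apela) and none higher, with a median log2 ratio of -0.71. Aqp4 and Elf5 lay under 50 CPM at day 7 and entered only through day 2, so they could only be lower. The background was 7.05% of 3774 genes at least 2-fold higher and 5.64% at least 2-fold lower. In gene-low members 5 of 14 were lower, with a median of -0.85. There, 7.55% of all 3748 genes entered were at least 2-fold higher and 6.67% at least 2-fold lower. The 12 sodium, potassium and aldosterone genes that entered had a median of -0.11. In gene-low members Kcnj10 was at least 2-fold lower, 1 of 12, with a median of -0.19, and without cell cycle members Fxyd2 was at least 2-fold higher, 1 of 13, with a median of -0.55. Of 13 injury genes, Sox4 and Vcam1 were at least 2-fold higher and Lcn2, Anxa1 and S100a6 at least 2-fold lower. Vcam1 entered only through day 7, so it could only be higher. Sox4, a transcription factor seen in repairing tubules, was at 83.6 CPM in sham (49.5 to 132), 237 at day 2 (196 to 284), 505 at day 7 (445 to 571) and 307 after reversal (251 to 373), highest at day 7. Vcam1, an adhesion molecule for leukocytes, rested on 7 cells at day 7 and 3 after reversal, and with likely doublets removed it was higher after reversal than at day 7, with a log2 ratio of 1.26. Dcdc2a, a protein of primary cilia, was at 4.64, 69.4, 211 and 233 CPM and was as high after reversal as at day 7.

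Part of the matrix and interferon lists was at least 2-fold higher at day 7 than at day 2, where the background was 7.05%, but most of these genes could enter only because day 7 was high. Of 10 matrix and growth factor genes, 5 were at least 2-fold higher (Tgfb1, Tgfb2, Pdgfa, Col4a1 and Vim) and none lower, with a median log2 ratio of 0.97. Of the 5 only Col4a1 was above 50 CPM at day 2 as well, so the filter set the direction of the other 4. Of 11 interferon and class I genes, 4 were, among them Irf7, Psmb8 and Ifi27l2a, with a median of 0.74, and Psmb8 alone among the 4 was above 50 CPM at day 2. With the estimated free RNA subtracted, that median was 0.15 over 7 genes. Col4a1, a basement membrane collagen chain, was at 92.8 CPM in sham (56.7 to 143), 151 at day 2 (119 to 189), 310 at day 7 (263 to 362) and 164 after reversal (124 to 214), higher at day 7 than in the other 3 libraries. Tgfb2, a TGF-beta ligand, had 0, 1, 31 and 15 UMIs in the 4 libraries, and its ratio at day 7 against day 2 was 30 (5.00 to 1221). Pdgfa, a mitogen for fibroblasts, was at 4.64, 10.2, 55.2 and 8.95 CPM. C3, the central complement protein, was at 0, 14.3, 105 and 23.9 CPM, and B2m, the class I light chain, at 311, 487, 817 and 594 CPM. Each of these was highest at day 7.

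Several of these lists moved alongside markers of other cells. The 6 leukocyte markers other than the gate's Ptprc summed to 149, 716, 3753 and 1525 CPM in members and to 208, 774, 4612 and 1840 CPM in endothelium-gated cells of the same libraries, although the gate allows no Ptprc UMI. Stromal markers summed to 4.6, 6.1, 88.8 and 20.9 CPM in members, and the 8 proximal tubule markers to 9396, 1071, 509 and 3892 CPM, against 9513, 1895, 992 and 4751 CPM in the leukocyte gate. The estimated share of free RNA in the members was 16.8%, 7.98%, 10.9% and 15.2%. The part of these markers in the interferon, matrix and inflammatory counts was not tested. In gene-low members, 1 of 6 matrix genes that entered was at least 2-fold higher at day 7 than at day 2.

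The 10 genes with the highest ratios at day 2 against sham were S100a6, Sprr2f, S100a14, 2810417H13Rik, Birc5, Socs3, Cenpf, Mki67, S100a8 and Ube2c, of which 6 were above both the leukocyte and the endothelium gate at day 2. Socs3, the feedback inhibitor of cytokine signalling, was at 0, 129, 90.8 and 44.8 CPM. The 10 lowest at day 2 included Miox, Gatm, Kap and Slc34a1, genes of the proximal tubule, and S100g, and 4 of the 10 were above those gates in sham. At day 7 against day 2, 8 of the 10 highest, among them Apoe, C1qa, H2-Aa and H2-Eb1, were not above the higher of the leukocyte and endothelium levels. The 10 lowest at day 7 included Birc5, Top2a, Ube2c and Cdk1, the 4 of them that are on the cell cycle list, and Ranbp3l, a Ran-binding protein with 5, 31, 1 and 16 UMIs in the 4 libraries.

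After reversal 4 of 8 vasopressin and water genes were at least 2-fold higher than at day 7 and none lower, with a median log2 ratio of 0.86. The 4 were Aqp3, Aqp4, Avpr2 and Prkaca. Of these, Aqp4 and Prkaca lay under 50 CPM at day 7 and entered only through the reversed library, so they could only be higher. In gene-low members 3 of 6 were at least 2-fold higher, with a median of 0.72. There, 3.12% of all 3366 genes entered were at least 2-fold higher and 3.30% at least 2-fold lower. Of 13 principal cell genes, 3 were at least 2-fold higher (Aqp3, Aqp4 and Avpr2) and none lower, with a median log2 ratio of 0.54, or 3 of 13 with a median of 0.23 in gene-low members. The background was 3.61% of 3882 genes at least 2-fold higher and 3.14% at least 2-fold lower, 140 and 122 genes, or 83 and 145 with all UMIs as the total. Of the sodium and potassium genes Sgk1 and Kcnj10 were, 2 of 13, with a median of 0.47; among cells with at most 20% mitochondrial UMIs Kcnj10 was lower after reversal, with a log2 ratio of -0.63. In gene-low members that median was -0.15 with 0 of 12 past 2-fold, and among cells with at most 20% mitochondrial UMIs it was -0.33. Within connecting tubule gene-rich members Scnn1a was at 222 CPM at day 7 and 418 after reversal, Kcnj1 at 354 and 743, and Kcne1 at 284 and 627, whereas gene-low members had 135 and 86.6, 261 and 336, and 221 and 112 CPM. The higher levels after reversal were thus seen within the gene-rich members for these 3 genes, on 25 and 58, 40 and 103, and 32 and 87 UMIs. In gene-low members Scnn1a and Kcne1 were lower after reversal and Kcnj1 was higher, the latter on 103 and 66 UMIs. The number of gene-rich members was also larger, and no difference between gene-rich and gene-low members was tested. Of 10 matrix and growth factor genes, 6 were at least 2-fold lower than at day 7 (Tgfb1, Tgfbr1, Cyr61, Pdgfa, Edn1 and Vim), with a median of -1.10. Of these 6 only Tgfbr1 was above 50 CPM after reversal, so the other 5 entered through day 7 and could only be lower. In gene-low members 2 of 6 were lower, with a median of -0.50. Cyr61, a secreted matricellular protein, was at 9.28, 51.0, 96.7 and 8.95 CPM, and Edn1, the vasoconstrictor endothelin-1, at 13.9, 51.0, 75 and 17.9 CPM. Both had 3 to 6 UMIs after reversal, close to their sham levels.

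Compared with sham, the reversed members had some transport genes at least 2-fold lower and some injury and keratin genes at least 2-fold higher. The background was 4.95% of 3235 genes at least 2-fold higher and 4.98% at least 2-fold lower, 160 and 161 genes, or 192 and 119 under TMM and 224 and 107 with all UMIs as the total. Aqp3, Scnn1a and Kcne1 were the 3 of 13 principal cell genes at least 2-fold lower, with a median log2 ratio of -0.74; in gene-low members 9 of 13 were, with a median of -1.04, where 208 of all 1732 genes entered were. Of 10 injury genes, 6 were at least 2-fold higher (Lcn2, Spp1, Clu, Sox4, S100a6 and S100a11), with a median of 1.08. In gene-low members 6 of 10 were, with a median of 1.54. S100a6 lay under 50 CPM in sham and entered only through the reversed library. Of the junction and keratin genes, the same 5 as at day 2 against sham were at least 2-fold higher, with a median of 0.70. They were Cldn3, Cldn4, Krt8, Krt18 and Krt19. Cldn3 and Krt19 lay under 50 CPM in sham and entered only through the reversed library, so the filter set their direction. In gene-low members 5 of 12 were at least 2-fold higher, with a median of 0.89. The 26 gene-rich reversed members stood near the gene-rich sham members in Krt8, Krt18 and Cldn4. Krt8 was at 173 against 116 CPM, Krt18 at 151 against 161 and Cldn4 at 180 against 197. Krt19 was at 21.6 against 0 CPM, from 3 and 0 UMIs, and Clu stood apart, at 5070 against 992 CPM. Thinned to 1000 UMIs per cell, the 6 junction and keratin genes that still entered had a median of -0.28. The comparisons of day 2 and of reversal share the sham library. Gdf15 was within counting error of sham, at 80.6 against 55.7 CPM, a ratio of 1.45 (0.709 to 3.13).

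Of 18 inflammatory mediators 4 entered at day 2 against sham, and 3 were at least 2-fold higher (Cxcl16, Cx3cl1 and Nfkbiz) against a background of 10.7%, with a median log2 ratio of 1.36. In gene-low members 1 of 3 was, with a median of 0.83, and without cell cycle members 1 of 2, with a median of 0.68. After reversal against sham 4 entered and these 4 were at least 2-fold higher (Cxcl2, Cxcl16, Nfkbia and Nfkbiz) against a background of 4.95%. In gene-low members 3 of 4 were. Cxcl2, Cxcl16, Cx3cl1 and Nfkbiz lay under 50 CPM in sham and could enter only where the later library was high. Their direction is thus set by the filter, which holds for all 3 called at day 2. The counts show nothing of the other 14 genes. Cxcl16, a transmembrane chemokine, was at 37.1 CPM in sham (16.0 to 73.2), 116 at day 2 (88.1 to 151), 211 at day 7 (173 to 255) and 116 after reversal (82.8 to 159). Cxcl2, a neutrophil chemokine, was at 0, 38.8, 37.5 and 182 CPM, and its 61 UMIs after reversal came from 6 cells. The leukocyte gate had 14.6, 845, 262 and 534 CPM of it. Nfkbiz, a nuclear regulator of NF-kappaB targets, was at 23.2, 79.5, 105 and 155 CPM, with the sham interval below the others and overlapping intervals between neighbours after it. Nfkbia was at 121, 99.9, 156 and 251 CPM. Dusp1, an immediate-early phosphatase, was at 0, 71.4, 43.4 and 98.5 CPM.

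All 14 oxidative phosphorylation genes had log2 ratios below 0 at day 2 against sham, with a median of -0.73. Of them 2 were at least 2-fold lower (Atp5a1 and Ppargc1a), which is near the background of 9.49%. After reversal against sham the median was -0.67, with 2 of 14 at least 2-fold lower (Cs and Ppargc1a), where the background was 4.98%. In gene-low members 6 of 13 were at least 2-fold lower after reversal than in sham, with a median of -0.98, where 208 of all 1732 genes entered were. Ppargc1a, a coactivator that drives mitochondrial biogenesis, was at 306 CPM in sham (237 to 390), 106 at day 2 (79.2 to 139), 126 at day 7 (97.2 to 161) and 149 after reversal (111 to 197). Atp5a1, a subunit of ATP synthase, was at 1578, 643, 558 and 943 CPM. The mitochondrial share of all UMIs was also highest in sham, as given above, and its part in these levels was not tested. Glycolysis genes differed less, with a median of -0.31 and 1 of 13 at least 2-fold lower at day 2 against sham, where the background was 9.49%. Gapdh and Ldha were at 1532 and 673 CPM at day 2 and 606 and 284 at day 7. They were the 2 of 12 genes of that list at least 2-fold lower at day 7, where the background was 5.64%.

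**Figure D5:**
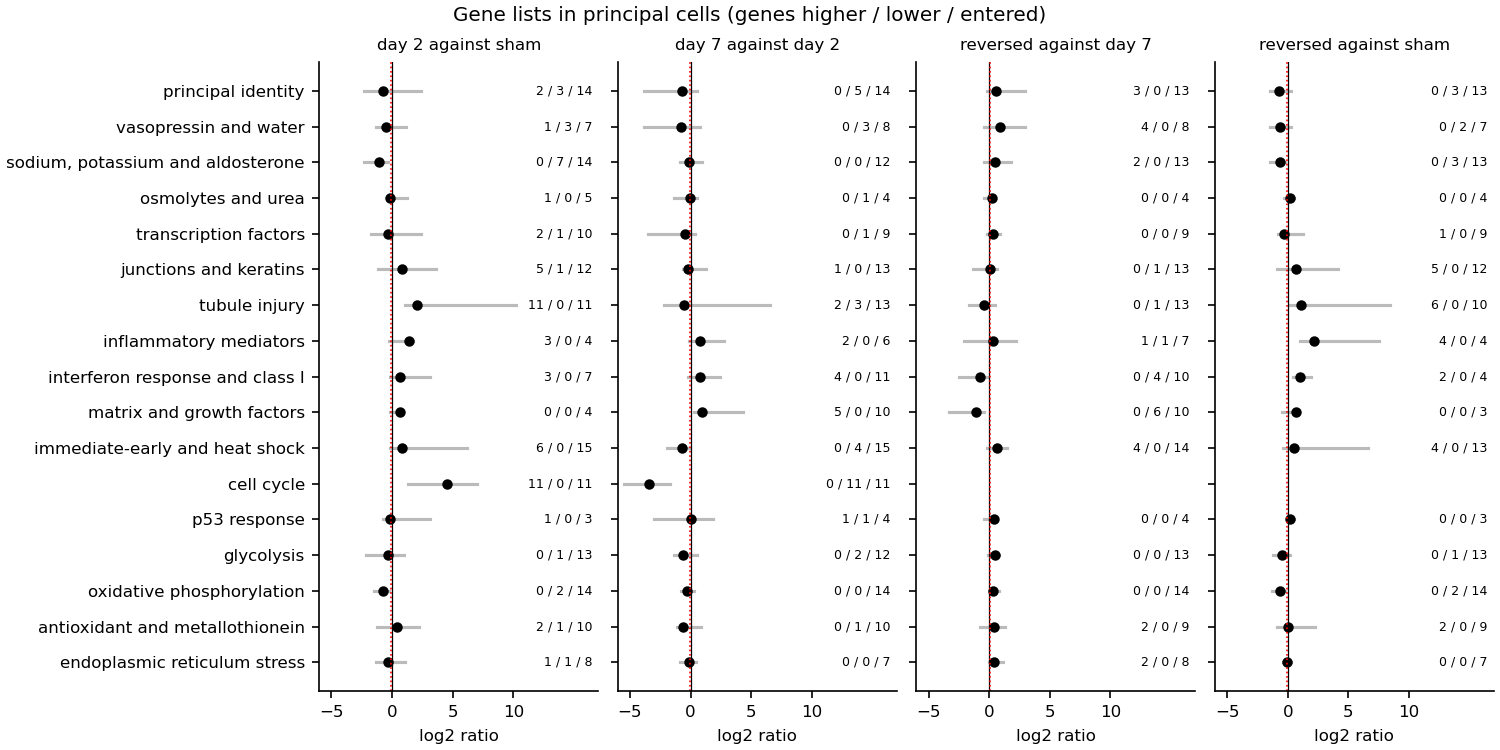
Points are median log2 ratios of the genes of each list that entered a comparison, grey lines run from the lowest to the highest gene, numbers at the right are genes at least 2-fold higher, at least 2-fold lower and entered, and the red dotted line is the median of all genes. Injury and cell cycle lists stand to the right at day 2 against sham, with medians of 2.02 and 4.57, and the sodium, potassium and aldosterone list to the left, at -1.06.

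Metallothioneins and osmolyte genes completed the lists. Mt2 was at 69.6 CPM in sham (39.0 to 115), 320 at day 2 (272 to 374), 148 at day 7 (116 to 185) and 340 after reversal (281 to 409), with day 2 and reversal both above the other libraries. Its neighbour Mt1 was at 989, 665, 389 and 979 CPM and was thus not higher than sham in any library. Akr1b3, the aldose reductase that makes the osmolyte sorbitol, was at 88.2 CPM in sham (53.1 to 138), 210 at day 2 (171 to 255), 78.9 at day 7 (56.4 to 107) and 113 after reversal (80.3 to 156). It was the 1 of 5 osmolyte and urea genes past 2-fold at day 2 against sham, where the background was 10.7% higher and 9.49% lower. Of 15 immediate-early and heat shock genes 6 were at least 2-fold higher at day 2 than in sham, against the same background. The median was 0.81, and 0.15 among cells with at most 20% mitochondrial UMIs. Fosb and Dusp1 of the 6 lay under 50 CPM in sham and entered only through day 2, so they could only be higher. At day 7, 4 of 15 were at least 2-fold lower than at day 2, where the background was 5.64%, with a median of -0.70. Fosb and Hspa1b of the 4 lay under 50 CPM at day 7 and entered only through day 2, so they could only be lower. Digestion of the tissue is also known to induce such genes, and its part was not tested. The p53 response list had 1 of 3 genes past 2-fold at day 2 against sham, Gdf15, and the endoplasmic reticulum stress list 2 of 8, Atf4 higher and Herpud1 lower. With 1 of 8 in each direction, that list was near the background of 10.7% and 9.49%. Atf4 and Herpud1 each entered only through the library where they were high.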

How the data were processed

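The 4 droplet libraries of mouse kidney (10x 3′ v2, per the labels' protocols) were deposited as UMI counts, not normalized, for 28692 genes per file. Cell Ranger, STAR and the builds GRCm38 and mm10 are named in the submitters' processing notes, without versions or roles, and how cells were called is not given in the sources used here. Samples were grouped by the condition in the labels, with 1 library per condition, so the spread between mice could not be measured and no test or p-value was computed. The Smart-seq2 sample was not used.

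Quality limits of 200 genes and 50% mitochondrial UMIs per cell came before the gate described above. The counts of members were summed per library and scaled to nuclear-encoded UMIs (CPM). Log2 ratios used a pseudocount of 1 CPM, and folds are ratios of CPM without it. Genes with at least 30 UMIs over both libraries and at least 50 CPM in the higher one entered a comparison. Intervals are 95% and exact (Poisson, Clopper-Pearson or conditional binomial), cover counting error only, and a group at 0 was set to a floor of 3 UMIs per library. Per library, 3 UMIs correspond to 13.9, 6.12, 5.92 and 8.95 CPM in sham, day 2, day 7 and reversed members. For shares, each cell was thinned to 1000 UMIs, and no member was shallower. Free RNA was modelled on the profile of all deposited cells, with its share in the members set by genes of other cell types that the gate does not use, and was subtracted in 1 alternative. Doublets were treated in an alternative that removed the highest Scrublet scores (scanpy 1.11.5), 0.8% for every 1000 deposited cells, and so 0, 0, 2 and 1 members. The members, 17 gene lists and 10 marker lists were chosen with earlier results of these data known. The genes named are those of the lists and, in each of 4 comparisons, the 10 highest and 10 lowest ratios, leaving out mitochondrial, ribosomal and haemoglobin genes, Xist and the gate's genes. Of 14 alternatives for the levels, 3 were chosen after seeing the data. R 4.3.3 with edgeR 4.0.16 (TMM factors only) and DESeq2 1.42.0 (size factors only), and scipy 1.17.1, pandas 2.3.3, numpy 2.4.6 and matplotlib 3.10.9 under Python 3.11.15 did the rest. The steps were tested on simulated counts. Results for a few genes are not reported here.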

Additional observations from a re-analysis of the deposited data

Results flagged for a closer look

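In 2 genes the principal cells and another tubule gate of the same libraries pointed in opposite directions between day 7 and day 2, each past 2-fold. Anxa1, a calcium-dependent membrane-binding protein, had a log2 ratio of -1.02 in principal cells and 1.39 in the thick ascending limb gate. Thinned to 1000 UMIs per cell, the value in principal cells turned to 1.94. That value rests on too few UMIs to meet the filter, so it neither keeps nor overturns the contrast in Anxa1. Cdkn1a, the cell cycle inhibitor p21, had a log2 ratio of 1.88 in principal cells and -1.60 in the distal convoluted tubule gate. In principal cells it lay under 50 CPM at day 2 and entered only through day 7, so the filter set its direction there. In gene-low members no gene of the p53 response list, which holds Cdkn1a, was at least 2-fold higher. With 1 library per time point neither difference was tested.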

How the results depend on the processing

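Among the 17 gene lists, marker lists apart, 8 medians past 2-fold rested on 3 or more genes. They kept their sign in all 98 values under the alternatives. For the cell cycle and inflammatory medians, and for matrix at reversal against day 7, the filter set the direction of most called genes. All alternatives but the one without the filter kept it, so a kept sign is no separate support for those lists. The cell cycle list at reversal against day 7, at -1.14, was Stmn1 alone and was not among the 8. The median of the 5 connecting tubule markers at reversal against day 7 was 2.03, and -0.43 over 4 of them without the members those markers had chosen as gene-rich. No paired analysis was possible because each group has 1 library, and no replicate could be left out. Before the pseudocount, a change of scaling shifts the log2 ratios of all genes by the same amount. At day 2 against sham this shift was 0.19 with TMM scaling, 0.13 with DESeq2 size factors and 0.23 with all UMIs as the total. At reversal against day 7 and against sham it was -0.14 and 0.14 with all UMIs. Depth limits the sham library most, and Elf5, Tgfb2, Pdgfa, Vcam1 and Cxcl2 rest on few UMIs or cells. The cause of the movements below was not tested, beyond fewer genes entering where cells were thinned or left out.

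With a mitochondrial limit of 20%, which leaves 16, 38, 71 and 30 members, 2.47% of kept sham cells were members, 25% of sham and 86.8% of day 2 members had Lcn2 and 100% of day 2 members Clu. There, 230 genes were at least 2-fold lower at day 2 than in sham, not 351. Medians there were, at day 2 against sham, -1.02 for vasopressin and water, 1.49 for injury and 0.15 for immediate-early genes. At reversal against day 7 they were -0.33 for sodium, potassium and aldosterone, 0.033 for injury and -0.044 for oxidative phosphorylation. At reversal against sham they were 1.39 for injury, 0.55 for interferon and -1.04 for oxidative phosphorylation. Reversed in sign were Klk1 (0.22 at day 2 against sham, -0.12 at reversal against day 7), S100g (-0.094) and Kcnj10 (-0.63).

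Without connecting tubule gene-rich members, 55.2% of reversed members had Lcn2, 16.0% of sham members Clu and 88.0% Aqp3. Medians were 1.52 for injury at day 2 against sham. At reversal against day 7 they were -0.15 for sodium, potassium and aldosterone, 0.063 for injury, -0.13 for interferon and 0.046 for oxidative phosphorylation, and against sham -1.16, 1.54 and -0.98 for sodium, injury and oxidative phosphorylation. Reversed in sign were Emx1 (4.12 at day 2), Klk1 (-0.29 at day 7), Calb1 (-0.34) and S100g (-0.52). The Emx1 value rested on too few UMIs to meet the filter. Without cell cycle members, 233 genes were higher at day 2, the medians at day 2 were -0.38 for principal identity and 1.48 for p53 response (2 genes), and those at day 7 were -0.55 for sodium and -0.18 for cell cycle. Top2a was then at -0.46 at day 2, and Mki67 and Stmn1 at 0.020 and 0.37 at day 7. These genes are on the list whose UMIs chose the cells left out. Their values and the cell cycle median of -0.18 are therefore a description only. The gate of at least 10 UMIs gave 1.51% of kept cells at day 7, and with doublets removed Vcam1 was 1.26 at reversal.

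Genes lower at day 2 were 214 with TMM scaling and 202 with all UMIs as the total, under which 83 were higher at reversal than at day 7 and 107 lower than in sham. With each cell counting equally 214 were higher at reversal than at day 7, and with a pseudocount of 10 CPM 91 were higher and 73 lower. Thinned, genes higher and lower were 77 and 49, 22 and 48, 28 and 28, and 17 and 37 in the 4 comparisons, and without the filter 3372 and 2312, 3012 and 1856, 2032 and 2543, and 3297 and 1844. Thinned medians were, at day 2, -0.67 for sodium, 2.47 for injury and 0.14 for glycolysis, and at day 7, 0.31 for transcription factors, 0.34 for interferon, -0.98 for glycolysis and 0.54 for endoplasmic reticulum stress. At reversal against day 7 they were -0.80 for transcription factors and 0.013 for interferon, and against sham -0.28 for junctions, 1.36 for injury and 0.13 for immediate-early genes. Anxa1 was -1.18 and 1.94 at days 2 and 7 when thinned, Adcy6 0.19 at day 2 and Ptger1 0.26 at reversal against sham. Both thinned Anxa1 values rested on too few UMIs to meet the filter. With free RNA subtracted, interferon medians were 0.15 at day 7 and 0.18 at reversal against sham, the antioxidant median there 0.27, Fxyd2 0.35 at day 2, Slc34a1 -0.98 at reversal against day 7 and C1qa -3.58 at reversal against sham.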
